A study of Drosophila melanogaster with 33 samples.

Results

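Distal accessible regions are stretches of open chromatin that lie away from any transcription start, and in the fly genome many of them are enhancers, silencers or boundary elements. The regions described here were open wherever they were looked for. ATAC-seq, in which the transposase Tn5 cuts open DNA and adds sequencing adapters to it, gave 33 libraries of sorted cells from adult Drosophila brains. The deposited peaks of all 33 libraries were merged where they shared at least 1 bp, which gave 36210 regions. Of these, 9040 held a peak in every library, and 3069 of the 9040 had both edges more than 1 kb from each of 23776 annotated transcription starts of the dm6 assembly. These 3069 distal regions, 8.48% of all merged regions, are the subject of this report. The regions were chosen by the peak calls themselves, and thus by tags above background at each summit, so that the presence of a peak in every library is a property of the choice and not a result, and a region had to be well above background in the shallowest library to enter.

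All flies carried ClkGAL4 driving UAS-GFP-NLS, a nuclear GFP, and the sorter separated GFP-positive clock neurons from GFP-negative non-clock cells, both negative for the dead-cell dye DAPI. From wild-type clock neurons came 8 libraries in 12 h light and 12 h dark (LD), of which ZT0 and ZT12 have 4 each, and 6 in constant darkness (DD), of which CT24 and CT36 have 3 each, where ZT0 and CT24 are dawn or subjective dawn and ZT12 and CT36 are dusk or subjective dusk. In per01 mutants, which lack a working period gene, clock neurons in DD gave 4 libraries at CT24 and 4 at CT36. Non-clock cells gave 4 libraries in wild-type LD, 3 in wild-type DD and 4 in per01 DD, and their labels give no time of collection. The labels give no age beyond adult. The per01 genotype is written per01/Y, that is, males, whereas the wild-type labels name no sex and the study's methods speak of brains of males and females. The driver limits the clock sample to cells in which ClkGAL4 was active, and each library pooled dissected brains. Per the study's methods the non-clock samples were live GFP-negative cells of similar size, sorted in larger number than the clock neurons. The number of cells thus cannot be told apart from cell type. Nothing in the labels states that replicates came from separate fly cultures, so a p-value here measures the spread between these libraries. In such bulk samples a lower signal in fewer cells and a lower signal per cell cannot be told apart.

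The circadian clock of the fly is a feedback loop. The transcription factors CLOCK (Clk) and CYCLE activate period and timeless around dusk, and the PERIOD and TIMELESS proteins later shut CLOCK off. In a second loop vrille (vri) represses and Pdp1 activates the Clk gene. Most accessible regions of an animal genome fall into a group at promoters, which is open in nearly all cells, and a group of distal elements that often differ between cell types. Distal regions that are open in all libraries sit between these groups, and the questions asked were what they are and how far their level still changes with cell type, time, light regime and genotype.

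The level of a region is given as CPM, the tags (sequenced ends counted over 74 bp) that cover its highest summit per M tags (M, mega) of the library. Total tags ranged from 4.18 to 17.0 M in clock neuron libraries and from 16.7 to 36.2 M in non-clock libraries. The median number of tags at the summit of a distal region was 35 to 265 in the different libraries, and the lowest 11 to 51, so that counting error is largest in the shallow clock neuron libraries. The cell types were checked at their markers. The summed level of 6 clock neuron genes was 86.8 to 125 CPM in the clock neuron libraries and 50.8 to 64.7 CPM in non-clock cells. The genes did not share this gap evenly. In LD, median Clk was 19.3 CPM in clock neurons against 2.95 CPM in non-clock cells, while median vri was 21.8 against 22.3 CPM. The Clk range in LD clock neurons, 15.6 to 22.7 CPM, is that of the Clk intron described below. The neuropeptide gene Pdf was called in 6 of 8 LD clock neuron libraries and in 0 of the other 25. The 6 glial markers summed to 18.9 to 37.6 CPM in clock neurons and 33.7 to 47.0 CPM in non-clock cells, nrv2 being the greater part in both. The glial gene repo was called in 1 of 22 clock neuron libraries and in all 11 non-clock libraries, and the 5 neuronal markers were called in all 33. The median sum of these 5 was 148 CPM in clock neurons against 175 CPM in non-clock cells in LD. It was 152 against 138 CPM in DD and 142 against 141 CPM in per01.

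The sequences of 8 regions are shown, since these regions carry the findings below. Those in Clk, vri and Octbeta2R differ most or among the most between clock neurons and non-clock cells, those in tty, CG6659 and CG2186 lie on X and rise together between light regimes in both cell types, the one in tara is among the highest, and the one in Adss has the lowest spread. Each is the median summit with 100 bp on either side, on the + strand of dm6 (Release 6, RefSeq sequence), and capitals mark matches to any of 11 motifs searched on both strands. The windows are chr3L:7770614-7770814 (Clk), chr2L:5301465-5301665 (vri), chr3R:12579441-12579641 (Octbeta2R), chrX:21332439-21332639 (tty), chrX:18654423-18654623 (CG6659), chrX:10865725-10865925 (CG2186), chr3R:16248279-16248479 (tara) and chr3R:20829236-20829436 (Adss).
Clk: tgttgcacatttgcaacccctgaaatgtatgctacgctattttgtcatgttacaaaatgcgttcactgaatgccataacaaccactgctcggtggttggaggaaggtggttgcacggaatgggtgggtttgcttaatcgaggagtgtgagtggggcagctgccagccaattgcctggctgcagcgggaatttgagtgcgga
vri: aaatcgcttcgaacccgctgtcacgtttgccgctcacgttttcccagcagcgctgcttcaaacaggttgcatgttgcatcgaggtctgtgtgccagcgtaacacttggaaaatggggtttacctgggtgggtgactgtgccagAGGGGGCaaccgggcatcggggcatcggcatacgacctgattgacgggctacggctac
Octbeta2R: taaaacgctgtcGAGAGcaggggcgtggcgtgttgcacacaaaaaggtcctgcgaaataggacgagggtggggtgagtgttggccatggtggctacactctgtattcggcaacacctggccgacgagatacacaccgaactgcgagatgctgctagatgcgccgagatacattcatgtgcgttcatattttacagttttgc
tty: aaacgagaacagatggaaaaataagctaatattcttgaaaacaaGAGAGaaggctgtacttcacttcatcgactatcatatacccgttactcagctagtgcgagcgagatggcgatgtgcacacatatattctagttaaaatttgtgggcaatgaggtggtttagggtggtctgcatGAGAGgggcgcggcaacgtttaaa
CG6659: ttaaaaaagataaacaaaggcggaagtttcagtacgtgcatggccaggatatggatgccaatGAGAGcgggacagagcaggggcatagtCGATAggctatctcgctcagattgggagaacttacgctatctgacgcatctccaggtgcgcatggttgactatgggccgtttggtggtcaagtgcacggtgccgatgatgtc
CG2186: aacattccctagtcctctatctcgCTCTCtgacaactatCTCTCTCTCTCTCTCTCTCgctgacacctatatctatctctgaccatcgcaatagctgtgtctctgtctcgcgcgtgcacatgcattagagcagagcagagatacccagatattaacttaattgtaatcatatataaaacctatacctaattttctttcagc
tara: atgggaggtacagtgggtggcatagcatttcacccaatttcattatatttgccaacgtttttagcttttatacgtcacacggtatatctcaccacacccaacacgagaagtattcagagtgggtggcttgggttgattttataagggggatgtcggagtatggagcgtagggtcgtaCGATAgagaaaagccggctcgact
Adss: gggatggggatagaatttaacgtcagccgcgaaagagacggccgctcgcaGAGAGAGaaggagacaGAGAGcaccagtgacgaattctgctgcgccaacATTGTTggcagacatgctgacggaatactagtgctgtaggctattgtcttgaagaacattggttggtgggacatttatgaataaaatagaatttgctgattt

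In these windows the capitals of vri mark AGGNGGC, those of Octbeta2R, tty and CG2186 mark GAGAG, and those of CG6659 mark GAGAG and CGATA. CG2186 holds 9 matches of GAGAG, most of them overlapping, which read CTCTC on the printed strand, tty holds 2 and Octbeta2R 1. The tara window holds 1 CGATA, and the Adss window 3 matches of GAGAG and 1 of AACAAT, which reads ATTGTT on the printed strand. None of the 11 sets of letters is in the window of Clk, which says nothing about factors that bind there by other sequences.

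Of the 3069 distal regions, 2006 (65.4%) had their summit in an intron, 901 (29.4%) between genes and 162 (5.28%) in an exon. The share in introns was 29.2% among the 5971 regions within 1 kb of a start that were also open in every library, and 63.0% among the 5293 distal regions called in 17 to 32 libraries. Chromosome arm 3R held 759 distal regions, 3L 665, 2L 588, 2R 564, X 472 (15.4%), chromosome 4 held 20 and Y 1. A median distal region was 575 bp wide (quartiles 427 and 781 bp) and lay 4833 bp from the nearest start (quartiles 2382 and 9568 bp). The median level over libraries had a 10th percentile of 4.02, a median of 7.43 and a 90th percentile of 19.7 CPM. Start regions open in every library had a median level of 11.1 CPM, and distal regions called in 17 to 32 libraries had 3.28 CPM and a width of 398 bp. Level and width are tied to the rule, because a high summit is called more readily in a shallow library. Median GC content in such windows was 50.7%, against 46.8% at the start regions. An annotated transposable element overlapped 41 (1.34%) at any point of the region. The share was 1.27% of the start regions, 0.661% of distal regions called in 17 to 32 libraries and 0.790% of all regions, and width differs between these sets.

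The summits agreed between libraries within 150 bp in most regions but not in all. The quartiles of the summit positions lay a median of 25 bp apart, against 10 bp at start regions open in every library. In distal regions called in 17 to 32 libraries the median was 38.75 bp. In 719 regions (23.4%) every library had its highest summit within 50 bp of the median summit, and in 2069 (67.4%) within 150 bp. In 1921 regions (62.6%) each library had exactly 1 peak. In 278 (9.06%) the quartiles of the summit positions lay more than 150 bp apart, so that libraries may read different elements of a wide region there. At the distance limit, the closest regions inside were an intron of CG32264 at 1001 bp (6.42 CPM) and one of CG42238 at 1002 bp (7.93 CPM). The closest outside lay at 999 bp in an intron of CG42258 (10.6 CPM) and an exon of myd (4.83 CPM). At the library limit, 619 distal regions (median 4.24 CPM) were called in 32 libraries, and the library that missed most of them (189) was per01 CT36 replicate 4, the shallowest with 4.18 M tags. The number of regions was 2464 with a limit of 2 kb and 3673 with 500 bp.

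Short sequence motifs are given as shares of windows that hold a match on either strand. GAGAG, the letters bound by GAGA factor and other GA-binding proteins, was in 40.05% of distal regions open in every library, 40.1% of start regions open in every library, 28.3% of distal regions called in 17 to 32 libraries and 29.5% of all regions. CGATA, the core of the site of BEAF-32, was in 13.1%, 32.1%, 13.1% and 20.9% of the same 4 sets, and the longer TATCGATA (DREF), which can overlap it, in 0.358%, 6.08%, 0.170% and 2.42%. GGTCACACT, the site of M1BP, was in 0.130% of the distal regions, 5.48% of the start regions and 1.76% of all. Thus CGATA, TATCGATA and GGTCACACT were less frequent here than at the start regions, while the share with GAGAG was close to that at the start regions. AGGNGGC, the core of the CTCF site, was in 14.4% (12.2% of all), and the E-box CACGTG, the letters bound by CLOCK and CYCLE, in 5.87% (4.65% of all). TTANNTAA, part of the sites of VRI and PDP1, was in 4.72% (7.13%), AACAAT (Sox) in 13.8% (16.7%), TGANTCA (AP-1) in 2.12% (3.13%), CAGGTAG (Zelda) in 0.815% (1.02%) and ATTTGCAT (POU) in 2.77% (3.08%). These shares are descriptions, GC content differs between the sets, and a match is not a bound site.

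Genes whose body held at least 1 numbered 936, and they held 2168 of the regions. Of these genes, 455 held exactly 1, while 109 held 5 or more, with 754 regions (24.6%) and a median gene length of 68.8 kb. A longer gene has more room for regions, and the counts were not set against gene length. The most were in Rbp6, an RNA-binding protein of the Musashi family, with 20 over 179 kb, followed by bru3, an RNA-binding protein of the Bruno family, with 17 over 281 kb. The translational repressor pum held 16, the nuclear receptor Eip75B 12, and Mnt (a partner of Max), the potassium channel Sh and the acetylcholine receptor nAChRalpha6 11 each. The ecdysone receptor EcR, the ecdysone-induced transcription factor Eip74EF, lilli and the adhesion protein CadN held 10 each.

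The highest levels were in few places. An intergenic region at chrX:23431177-23432616, 106 kb from the closest annotated transcription unit, had a median of 61.6 CPM. It lies in the stretch of X that carries ribosomal RNA genes and their fragments, as do an exon of 28SrRNA-Psi:CR45859 at 57.1 CPM and a region at chrX:23472323-23472618 with 50.0 CPM, and tags of repeated copies could not be told apart there. Outside repeats, a region beside lncRNA:CR45054 reached 57.9 CPM, with a range of 44.0 to 69.4 CPM over the 33 libraries. An exon of spen, a nuclear co-regulator of transcription, reached 56.2 CPM. Introns of tara, a cofactor with a role in fly sleep, reached 51.9, 51.1 and 50.2 CPM, a region near lncRNA:CR45571 reached 51.4 CPM, and an exon of bin3 reached 49.5 CPM. The lowest levels were 2.72 CPM at tei and 2.75 CPM at lncRNA:CR45599.

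The tara intron whose sequence is shown had 40.8, 47.5 and 52.2 CPM (lowest, median, highest) in LD clock neurons and 51.9, 60.8, 63.8 and 66.8 CPM in LD non-clock cells. In DD it had 47.0, 55.2 and 57.3 CPM in clock neurons and 46.3, 48.3 and 59.8 CPM in non-clock cells, and in per01 49.3, 51.6 and 55.8 CPM against 50.8, 52.3, 53.3 and 62.9 CPM. The cell types overlapped in all 3 settings, in LD only by the lowest non-clock library. The difference was called in LD, at -0.23 (limma adjusted p = 0.034). The steadiest region was an intron of Adss, adenylosuccinate synthetase of purine synthesis, with 18.2 to 26.2 CPM in the 33 libraries (median 23.7) and an SD of 0.082 on the log2 scale. The checkpoint kinase gene grp (0.086) and CG42613 (0.088) came next.

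**Figure D1:**
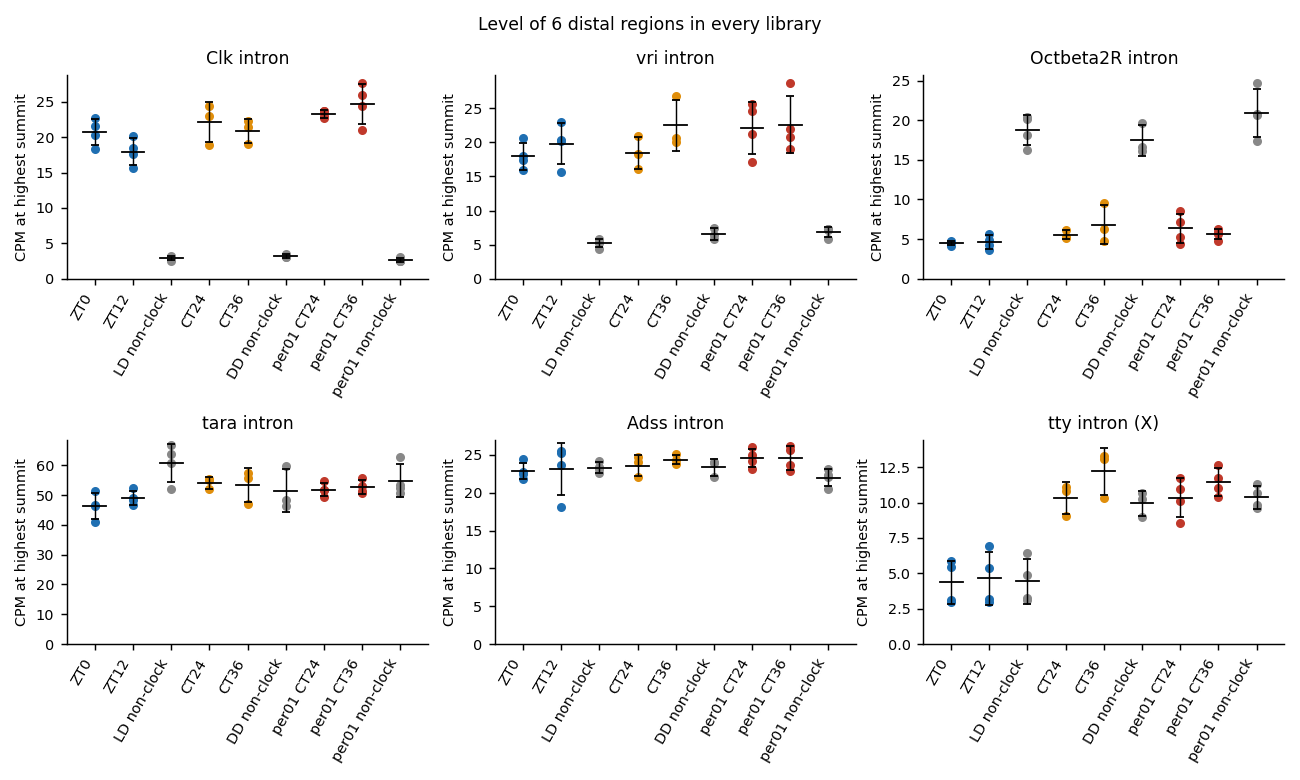
Level (CPM at the highest summit, vertical axis from 0) of 6 distal regions in each of the 33 libraries, by group. Points are libraries, and bars give the mean and SD of a group. Clk and vri introns are high in every clock neuron group, the Octbeta2R intron in every non-clock group, the Adss intron stays between 18.2 and 26.2 CPM, and the tty intron is lower in the 3 LD groups.

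Being open everywhere did not mean being level everywhere. The SD of a region over the 33 libraries, on scaled log2 tags, ran from 0.082 to 1.39 with a median of 0.30. The median SD within groups was 0.20 and that of counting alone 0.16, whereas the 9 group means had a median SD of 0.24. In a principal component analysis of the 3069 regions, the first component (54.6% of the variance) placed clock neuron libraries at -17.7 to -4.74 and non-clock libraries at 16.6 to 23.0. The second (10.8%) placed LD libraries at 2.00 to 13.4 and all DD libraries, per01 included, at -8.87 to -0.617. The third (7.88%) placed CT24 at 8.66 to 11.0 and CT36 at -2.33 to 5.15. The first component thus separated the cell types and the second the light regimes. Within DD the second also set wild-type clock neurons (-3.11 to -0.617) apart from per01 clock neurons (-8.87 to -4.32). In non-clock cells the genotypes overlapped on it (-3.68 to -0.955 and -5.95 to -3.05). The third separated the times only in wild-type DD clock neurons, since ZT0 (-7.68 to 7.59) overlapped with ZT12 (-11.1 to 4.84), and per01 CT24 (-4.64 to 5.75) with per01 CT36 (-12.7 to 5.71).

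**Figure D2:**
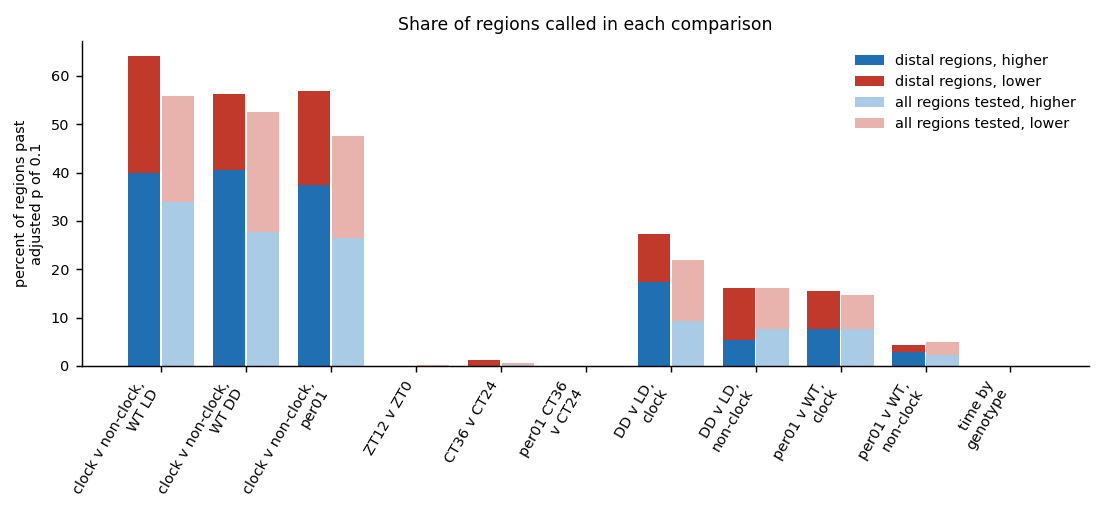
Percent of regions past an adjusted p of 0.1 (vertical axis from 0) in each of the 11 comparisons, for the 3069 distal regions (dark) and for all regions tested (light), with regions higher and lower in the first-named group stacked. Comparisons of cell type call 56.3% to 64.1% of the distal regions, light regime 27.2% and 16.1%, genotype 15.5% and 4.30%, and comparisons of time at most 1.14%.

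Clock neurons were first set against non-clock cells, within wild-type LD, wild-type DD and per01, and these 3 comparisons share no library. Each used limma on log2(tags + 1) over all regions tested, with Benjamini-Hochberg adjustment over all of them, and a region is called where the adjusted p is at most 0.1. In LD, 1967 of the 3069 distal regions (64.1%) were called, 1224 higher and 743 lower in clock neurons, against 55.8% of all regions tested (33.9% higher and 21.9% lower). In DD, 1728 (56.3%) were called, 1244 higher and 484 lower, against 52.5% of all (27.6% and 24.9%). In per01, 1745 (56.9%) were called, 1146 higher and 599 lower, against 47.7% of all (26.5% and 21.1%). The median log2 difference of the distal regions was 0.11, 0.15 and 0.10, and 330 differed more than 2-fold in LD. Scaling to total tags instead gave 1033 higher and 962 lower in LD and moved the median from 0.11 to 0.0020, so the excess of higher calls in LD depends on the scaling. Start regions open in every library were called in 41.2%, 39.0% and 30.9% of cases, and distal regions called in fewer libraries in 71.1%, 61.8% and 62.5%.

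In all 3 settings 878 regions (28.6%) were higher and 339 (11.0%) lower in clock neurons, and 6 were called in each but not in 1 direction. Among the regions tested in all 3, 19.3% were higher and 11.1% lower in each, so that the share of distal regions lower in each was near the background. Direction went with level. Among the regions below the first quartile of level (2.72 to 5.06 CPM), 450 regions were higher and 72 lower in clock neurons in LD, with a median log2 difference of 0.45. Among those above the last quartile (12.4 to 61.6 CPM), 131 were higher and 314 lower, with a median of -0.12. The same bands of level gave 379 and 75 against 236 and 114 in DD, and 387 and 64 against 142 and 227 in per01. Clock neuron libraries held fewer tags (4.18 to 17.0 M against 16.7 to 36.2 M), and a low region had to reach a call in each of them to enter the set. The part of depth and of this rule in the direction was not tested.

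**Figure D3:**
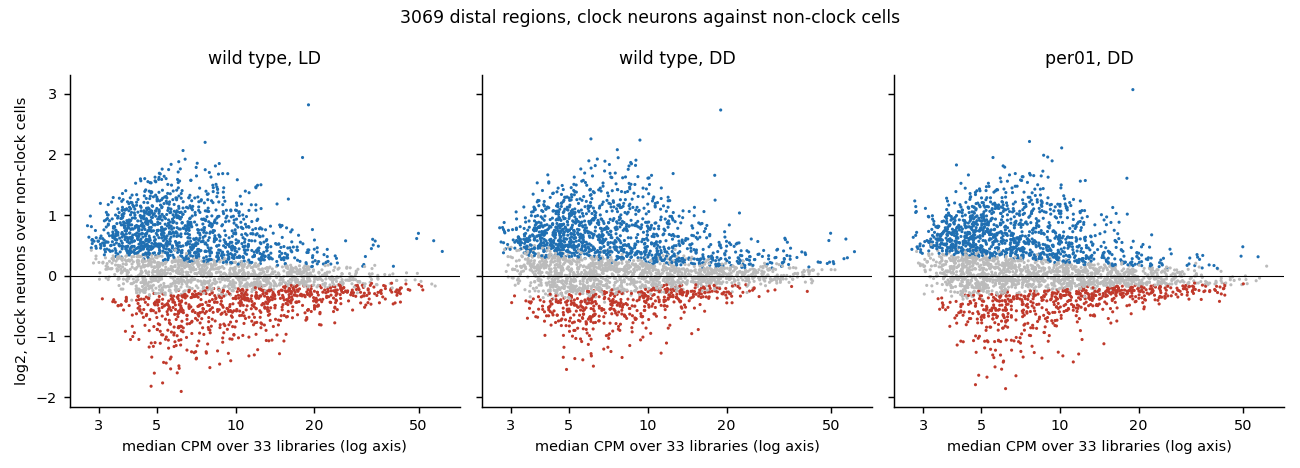
Log2 difference of clock neurons over non-clock cells (vertical axis) against the median CPM over 33 libraries (horizontal log axis) for the 3069 distal regions in wild-type LD, wild-type DD and per01. Blue and red points are called higher and lower, and gray points are not called. The point at the top of each panel is the Clk intron, at 2.82, 2.73 and 3.07, and the median difference falls from 0.45 below the first to -0.12 above the last quartile of level in LD.

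The region with the highest spread of all, an SD of 1.39, was an intron of Clk itself at chr3L:7770405-7771223, 2053 bp from the nearest start. In LD it had 15.6, 19.3 and 22.7 CPM (lowest, median, highest of 8) in clock neurons and 2.54, 2.90, 3.01 and 3.15 CPM in non-clock cells. In DD it had 18.9, 21.8 and 24.4 CPM in clock neurons and 3.03, 3.14 and 3.55 CPM in non-clock cells, and in per01 21.0, 23.7 and 27.6 CPM against 2.45, 2.53, 2.53 and 3.10 CPM. The lowest clock neuron library stood well above the highest non-clock library in each setting. The log2 difference was 2.82 ± 0.11 (SE) in LD, 2.73 ± 0.10 in DD and 3.07 ± 0.09 in per01, with limma adjusted p of 4.9e-11, 3.4e-08 and 4.4e-14. Among the 3069 it was the largest difference in each setting. All flies carry the ClkGAL4 transgene with regulatory DNA of Clk. Whether that DNA includes this intron is not given in the sources used here, and tags of the transgene and of the gene could not be told apart.

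Both regions in vri were higher in clock neurons as well. The intron at chr2L:5301040-5301915 had 15.7, 19.1 and 23.0 CPM in LD clock neurons and 4.36, 5.28, 5.46 and 5.80 CPM in LD non-clock cells. In DD it had 16.1, 20.3 and 26.8 CPM against 5.77, 6.41 and 7.43 CPM, and in per01 17.1, 21.5 and 28.7 CPM against 5.80, 7.18, 7.26 and 7.37 CPM. The groups did not overlap. The log2 differences were 1.95 ± 0.13, 1.65 ± 0.14 and 1.61 ± 0.13 (limma adjusted p of 9.7e-09, 6.8e-06 and 5.3e-08). Another vri intron, at chr2L:5292867-5293321, was also called in each setting, with smaller differences of 1.17, 0.52 and 0.63.

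Pdp1 held 5 of the regions, and they did not move together. The one at chr3L:7834838-7835654, in an intron, had 14.6, 16.3 and 22.3 CPM in LD clock neurons and 6.87, 7.21, 7.81 and 8.59 CPM in LD non-clock cells. In DD it had 14.8, 17.7 and 20.7 CPM against 8.25, 10.2 and 11.7 CPM, and in per01 19.2, 21.5 and 23.9 CPM against 8.26, 9.13, 9.68 and 9.71 CPM. Again no groups overlapped, and the log2 differences were 1.26 ± 0.12, 0.85 ± 0.14 and 1.12 ± 0.08 (limma adjusted p of 5.3e-07, 0.00049 and 6.9e-09). An exon region at chr3L:7826034-7826851 was called higher in each, at 0.42, 0.68 and 0.25. The intron region at chr3L:7837037-7837393, only a short way from the first, was called in none, with 0.03, -0.14 and -0.07. One at chr3L:7847566-7848646 was called lower in LD alone (-0.31) and one at chr3L:7864017-7864444 higher in LD alone (0.55), and whether these differ between settings was not tested.

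Regions in genes of kinases that act on the clock were called in both directions. The intron of sgg, the fly GSK-3 that phosphorylates TIMELESS, at chrX:2652338-2652773 had 5.41, 6.22 and 8.75 CPM in LD clock neurons and 2.14, 2.22, 2.31 and 2.65 CPM in LD non-clock cells. It had 3.70, 4.63 and 6.05 CPM against 2.28, 2.46 and 3.04 CPM in DD and 5.43, 6.08 and 8.62 CPM against 2.43, 2.45, 2.53 and 2.80 CPM in per01, with no overlap. The log2 differences were 1.60 ± 0.17, 0.90 ± 0.20 and 1.28 ± 0.16 (limma adjusted p of 1.9e-06, 0.0033 and 5.1e-06). Of 6 regions in nmo, whose kinase acts on clock proteins, chr3L:8043364-8043737 was called higher in each setting (1.05, 1.20 and 0.59) and chr3L:8002466-8003003 lower in each (-0.39, -0.64 and -0.64), and over the 6 regions 2 were higher and 2 lower in LD and 1 and 1 in DD and in per01. At Pka-C1, the catalytic subunit of protein kinase A, chr2L:9693252-9693742 was higher in each setting (0.52, 0.65 and 0.45). The other calls at Pka-C1, in LD and in per01, were lower. In the whole list of 18 core clock genes, 6 held 18 of the regions, and 10 of the 18 were called higher and 5 lower in LD, 8 and 1 in DD, and 8 and 2 in per01.

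Beyond the clock, the regions highest in clock neurons lay near genes of many kinds. An intergenic region whose closest gene is CG8654, at chr2R:19991608-19992310, ran from 6.73 to 15.8 CPM in the 22 clock neuron libraries and from 1.69 to 2.85 CPM in the 11 non-clock libraries, with no overlap. The rule for the largest rises asked for lack of overlap, which 38.8% of the 3069 had in LD, against 33.1% of all regions tested. The log2 differences of the CG8654 region were 2.197, 2.076 and 2.211. A region nearest to robo3, a receptor for the guidance cue Slit, differed by 2.06, 1.81 and 1.56, and introns of CG45263 by 1.88, 2.25 and 1.81 and of Tmtc2 by 1.68, 2.23 and 1.89. An exon of the chitin deacetylase gene Cda5 differed by 1.581, 1.502 and 2.105, and introns of CG34109 by 1.85, 1.84 and 1.98 and of CG8861 by 1.75, 1.76 and 1.95. Each of these was called in all 3 settings.

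In the other direction, the intron of Octbeta2R, a beta-adrenergic-like receptor for octopamine, at chr3R:12579283-12579948 had 3.69, 4.62 and 5.66 CPM in LD clock neurons and 16.3, 18.1, 20.1 and 20.4 CPM in LD non-clock cells. It had 4.71, 5.77 and 9.52 CPM against 16.1, 16.6 and 19.7 CPM in DD, and 4.43, 5.82 and 8.54 CPM against 17.4, 20.7, 20.7 and 24.7 CPM in per01. Every clock neuron library was below every non-clock library, and the rule for the largest falls asked for such lack of overlap. The log2 differences were -1.91 ± 0.10, -1.49 ± 0.18 and -1.86 ± 0.15 (limma adjusted p of 1.1e-09, 7.3e-05 and 3.8e-08). Introns of lncRNA:CR44320 (-1.82, -1.34 and -1.80), trv (-1.61, -1.54 and -1.64) and Rbp6 at chr3L:17225155-17225690 (-1.54, -1.39 and -1.50), and a region near CG34429 (-1.77, -1.37 and -1.67), were lower in each setting as well. The 6 glial markers summed to 18.9 to 37.6 CPM in clock neurons and 33.7 to 47.0 CPM in non-clock cells, ranges that overlap, with repo called in 1 clock neuron library and in all 11 non-clock libraries. The markers did not all lie the same way, since median nrv2 was 22.6 against 28.1 CPM in LD, 28.0 against 25.01 CPM in DD and 20.7 against 18.2 CPM in per01 (clock neurons first). The glial gene moody was called in 3 of 8 against 3 of 4 libraries in LD, 0 of 6 against 2 of 3 in DD and 0 of 8 against 4 of 4 in per01. Where called in LD it had 3.39 against 1.60 CPM, but a call in a shallower library needs a higher CPM. The part of glia in these differences was not tested.

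Within a gene the regions could share a direction or not. The 16 in pum were mostly higher in clock neurons, with 9 called higher and 1 lower in LD, 10 and 1 in DD, and 12 and 1 in per01, and medians of 0.45, 0.47 and 0.43. In bru3 11 of 17 were higher and 2 lower in LD, 10 and 2 in DD, and 7 and 1 in per01. In nAChRalpha6 8 of 11 were higher and 1 lower in LD (median 0.86), 10 and 0 in DD, and 8 and 1 in per01, and in the splicing regulator gene heph 7 of 9 were higher in each setting and 2, 0 and 2 lower. In Eip74EF 0 of 10 were higher and 9, 7 and 8 lower (medians -0.25, -0.22 and -0.27), in EcR 1 was higher in each setting and 8, 5 and 8 lower, in ftz-f1 0 of 9 were higher and 6, 2 and 6 lower, and in Eip75B 2, 1 and 2 of 12 were higher and 7, 7 and 5 lower. Other genes of the ecdysone response had mixed or mostly higher counts, with 1, 4 and 2 of 8 higher and 3, 2 and 2 lower in Eip93F, 3, 1 and 1 of 8 higher and 0 lower in Hr4, and 2, 1 and 2 of 5 higher and 0, 0 and 1 lower in Hr39. Rbp6 was mixed, with 6 higher and 8 lower in LD, 5 and 4 in DD, and 6 and 6 in per01. The 9 genes from pum to Rbp6, without these last 3, were picked after their counts were seen from 20 genes that hold 9 or more regions, and others with as many, such as Mnt, Sh, CadN and lilli, are not described. No test was made of a gene as a whole.

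The other gene lists gave counts near an even split or with more higher calls. For cell adhesion and axon guidance, 62 of 99 genes held 166 regions, of which 74 were higher and 34 lower in LD, 83 and 26 in DD, and 77 and 29 in per01, with medians of 0.19, 0.30 and 0.24 beside 0.11, 0.15 and 0.10 for the 3069. For neuronal transcription factors, 38 of 50 genes held 133 regions, with 46 higher and 49 lower, 39 and 34, and 37 and 41. For ion channels, 15 of 25 genes held 48 regions, with 19 and 16, 12 and 8, and 13 and 10. Neuropeptides and their receptors had 13 regions in 10 of 32 genes, with 4 and 3, 4 and 2, and 5 and 3. Synapse genes had 15 in 7 of 23, with 4 and 3, 7 and 1, and 6 and 1, and insulator and architectural proteins had 2 in 1 of 13 annotated genes, 1 of them lower in each setting.

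The next question was whether these regions changed between dawn and dusk in clock neurons. In LD, 0 of 3069 were called between ZT12 and ZT0 by limma with Benjamini-Hochberg adjustment, against 0.103% of all regions tested. An unadjusted p below 0.05 was found for 190, the lowest adjusted p was 0.102, and limma with voom weights called 3. The replicate block called 0.228% of the distal regions and 1 fit over all 33 libraries 0.978%, a larger share than the same fit called in DD. In DD, 35 (1.14%) were called between CT36 and CT24, 34 of them lower and 1 higher at CT36. Of all regions tested 0.635% were called, 86 lower and 30 higher. An unadjusted p below 0.05 was found for 525. Voom called 44, total tags as the scale 72, 1 fit over all 33 libraries 15, no filter 11, summed summits 3 and the replicate block 0. In per01, 0 were called, against 0.00594% of all, with 49 at an unadjusted p below 0.05 and 0 by voom. The difference of the time effect between genotypes in DD was itself tested as an interaction, and 0 were called, against 0.0470% of all, with 209 at an unadjusted p below 0.05 and 0 by voom, so a difference between wild type and per01 in the response to time was not shown for any region.

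The count in DD rested on single libraries. It was 0 without CT24 replicate 1, CT24 replicate 2, CT36 replicate 1 or CT36 replicate 2, 6 without CT24 replicate 3, and 230 without CT36 replicate 3. The spread of the 3069 differences, from their 5th to their 95th percentile, was -0.34 to 0.26 in LD, -0.47 to 0.32 in DD and -0.23 to 0.23 in per01.

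Among the regions called in DD, the one near CG1394 at chrX:11171781-11172330 had the largest fall. It had 9.94, 14.0 and 14.7 CPM at CT24 and 4.59, 5.60 and 8.01 CPM at CT36, with no overlap and a log2 difference of -1.06 ± 0.20 (limma adjusted p = 0.062). An intron of CG42342 at chr3R:16562973-16563755 had 11.9, 13.7 and 13.9 CPM at CT24 and 5.96, 6.54 and 8.73 CPM at CT36, a difference of -0.87 ± 0.15 (limma adjusted p = 0.043). An intron shared by CG46320 and sif at chr3L:5733622-5734316 had 19.2, 20.3 and 23.4 CPM at CT24 and 9.86, 12.9 and 14.8 CPM at CT36, a difference of -0.72 ± 0.14 (limma adjusted p = 0.078). In each of them all CT24 libraries lay above all CT36 libraries, which the rule that named them asked for. Of the 3069, 22.0% had no overlap between the times in either direction, against 15.9% of all regions tested.

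Others of the 34, picked after their values were seen, lay in or beside AstA-R1, a receptor for allatostatin A (-0.61), the scaffold gene CASK (-0.59), the calcium channel subunit gene Ca-beta (-0.57), the active zone gene Rim (-0.56), CadN (-0.52), the channel gene Trpgamma (-0.52), the receptor genes GABA-B-R1 (-0.51) and nAChRalpha5 (-0.37), RhoGAP93B (-0.44), and MYPT-75D (-0.72) and flw (-0.70), a regulatory and a catalytic subunit of protein phosphatase 1. By the gene lists, 2 of the 34 belong to cell adhesion and axon guidance, which holds 166 of all 3069, 1 each to neuropeptides and their receptors, ion channels and synapse genes, and 0 to core clock, neuronal transcription factors or insulator and architectural proteins. The only region called higher at CT36 was an exon of lncRNA:CR43174 at chr3L:17945345-17945982, with 6.53, 6.64 and 7.53 CPM at CT24 and 10.5, 10.7 and 11.6 CPM at CT36, a difference of 0.69 ± 0.13 (limma adjusted p = 0.055). In LD it had 8.14, 8.42, 9.70 and 10.3 CPM at ZT0 and 11.6, 12.1, 13.3 and 13.3 CPM at ZT12, which do not overlap either, although the difference of 0.44 was not called (limma adjusted p = 0.36).

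The 34 regions lower at CT36 were followed in the libraries that had not been used to find them. In LD 33 of the 34 (97.1%) had a difference below 0, as had 56.1% of all 3069, and their median was -0.19 in LD against -0.57 in DD. In per01 26 (76.5%) were below 0, as were 51.6% of all, with a median of -0.07. By themselves 4 had an unadjusted p below 0.05 in LD and 0 in per01. Against non-clock cells in DD, a comparison that shares their libraries, 21 of the 34 were called higher and 0 lower in clock neurons, beside 40.5% higher and 15.8% lower of all 3069. In LD, whose libraries were not used to find them, 15 were called higher and 9 lower, beside 39.9% and 24.2% of all. Across the 3069 regions the differences of DD and LD had a Pearson r of 0.386 and a Spearman rho of 0.353, with 62.0% of the same sign, and r was 0.168 across the 5971 start regions. The correlation of DD with per01 was 0.0797 and that of LD with per01 0.0595. These 3 comparisons share no library, but regions are not independent replicates. Depth varies with the libraries in each, and GC content of the tags was not measured per library.

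**Figure D4:**
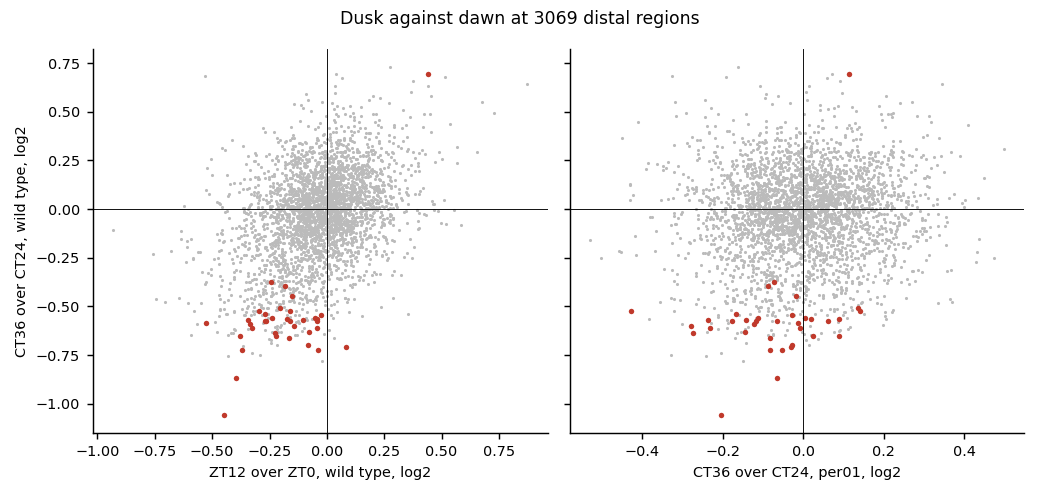
Log2 difference of CT36 over CT24 in wild-type clock neurons (vertical axis) against that of ZT12 over ZT0 in wild type (left) and of CT36 over CT24 in per01 (right) for the 3069 distal regions. Red points are the 35 called in wild-type DD. On the left 33 of the 34 lower regions lie below 0 on the horizontal axis, on the right 26.

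Light regimes were compared within wild-type clock neurons and, with no library in common, within wild-type non-clock cells. Constant darkness cannot be told apart here from whatever else differed between the sets of flies and libraries made for LD and DD. In clock neurons 836 distal regions (27.2%) were called, 532 higher and 304 lower in DD. Over all regions tested 22.0% were called, 1800 higher and 2467 lower. Of the calls at distal regions 63.6% were higher, and scaling to total tags made this 75.6% of 825 calls. In non-clock cells 495 (16.1%) were called, 164 higher and 331 lower, against 16.0% of all (1775 higher and 1917 lower). Total tags gave 109 and 413 at the distal regions. In clock neurons direction again went with level, with 18 higher and 94 lower below the first quartile and 313 and 52 above the last.

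The chromosomes differed. In clock neurons 225 of the 472 regions on X (47.7%) were called, 25 higher and 200 lower in DD, with a median of -0.24. The shift was found over all regions tested on X and not at the distal regions alone, with 53.4% called in clock neurons, 132 higher and 1694 lower (median -0.32), and 40.2% in non-clock cells, 225 higher and 1460 lower (median -0.27). Outside X 611 of 2597 distal regions (23.5%) were called in clock neurons, 507 higher and 104 lower, with a median of 0.07. Over all regions tested outside X it was 15.3%, 1668 higher and 773 lower. In non-clock cells 239 of the distal regions on X (50.6%) were called, 21 higher and 218 lower (median -0.31), and 256 outside X (9.86%), 143 higher and 113 lower (median 0.01). All regions tested outside X gave 10.7% in non-clock cells, 1550 higher and 457 lower. On X 132 regions were called in both cell types and all 132 in the same direction, 15 higher and 117 lower, which is 58.7% of those called in clock neurons and 55.2% of those in non-clock cells. Outside X 78 were called in both, 37 higher, 13 lower and 28 in opposite directions. These overlaps were not counted over all regions tested, so nothing particular to distal regions is read from them. Across regions r between the cell types was 0.676 on X and 0.108 outside X, from separate libraries of the same 2 light regimes. Without the split by chromosome it was 0.378, and 0.533 at start regions open in every library. With regions of X left out of the fit, a choice made after the data were seen, 4.31% of the remaining distal regions were called in non-clock cells and 18.7% in clock neurons. The count in non-clock cells also moved with single libraries. It was 841 without LD non-clock replicate 1, 307, 287 and 327 without LD non-clock replicates 2, 3 and 4, and 249 and 159 without DD non-clock replicates 1 and 2.

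In flies dosage compensation raises transcription of the single X of males, through a complex that carries roX RNAs and enters the X at GA-rich sites. Signal at the roX genes differed between the same sets of libraries, in the opposite direction to most X-linked distal regions. The highest summit at roX1 had a median of 9.32 CPM (range 5.58 to 13.1) in LD clock neurons and 10.3 CPM (8.26 to 18.9) in LD non-clock cells, against 26.2 CPM (21.8 to 27.3) and 28.1 CPM (25.4 to 30.7) in DD. In per01, whose label gives males, the medians were 22.6 and 28.5 CPM. The medians at roX2 were 6.90 and 8.89 CPM in LD, 11.6 and 15.1 CPM in DD and 12.4 and 13.8 CPM in per01. Per library, the median deviation of X-linked less that of other distal regions was 0.050 to 0.316 in LD clock neurons and 0.156 to 0.310 in LD non-clock cells. It was -0.156 to -0.054 in DD clock neurons, -0.055 to -0.024 in DD non-clock cells and -0.175 to -0.039 in per01, so that every LD library lay above every DD library. The wild-type labels name no sex, the study's methods name brains of males and females, and the part of the sex of the flies in the change on X was not tested.

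**Figure D5:**
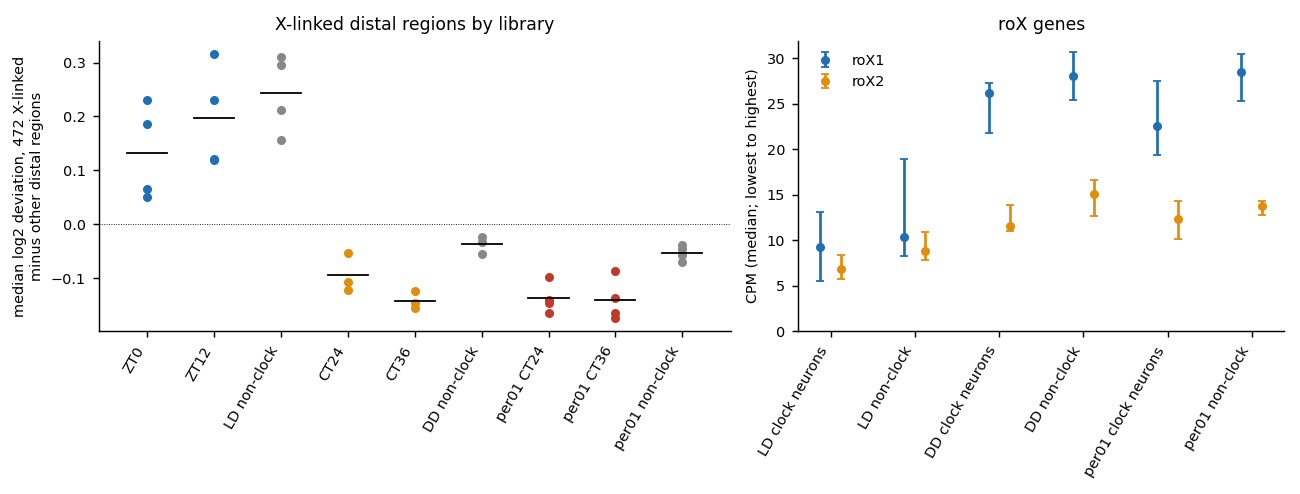
Left, median log2 deviation of 472 X-linked distal regions minus that of the other distal regions in each library (points) with the mean of each group (bars). Right, CPM at roX1 and roX2 as the median with lines from the lowest to the highest library. LD libraries lie at 0.050 to 0.316 on the left and all DD libraries, per01 included, below 0, whereas roX1 is lower in LD (medians 9.32 and 10.3 CPM) than in DD (26.2 and 28.1 CPM).

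The 15 X-linked regions higher in DD in both cell types ran against the rest of X. The intron of tty, a chloride channel gene, at chrX:21332426-21332709 had 3.01, 4.29 and 6.95 CPM in LD clock neurons and 9.03, 10.9 and 13.3 CPM in DD clock neurons. In non-clock cells it had 3.10, 3.26, 4.87 and 6.47 CPM in LD and 8.96, 10.2 and 10.7 CPM in DD. Neither pair of groups overlapped, which the rule that named this region asked for. The differences were 1.32 ± 0.19 and 1.25 ± 0.22 (limma adjusted p of 0.00031 and 0.012).

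The intron of CG6659 at chrX:18654385-18654647 had 2.52, 4.39 and 5.95 CPM in LD and 8.82, 10.4 and 11.0 CPM in DD clock neurons, and 2.41, 2.42, 4.07 and 6.60 CPM against 8.84, 9.73 and 10.5 CPM in non-clock cells. Its differences were 1.27 ± 0.17 and 1.47 ± 0.29 (limma adjusted p of 0.00021 and 0.016). The exon of CG2186 at chrX:10865661-10865932 had 4.02, 6.28 and 7.38 CPM in LD and 12.0, 14.0 and 16.3 CPM in DD clock neurons, and 4.27, 4.71, 6.80 and 8.12 CPM against 11.66, 13.04 and 13.73 CPM in non-clock cells. Its differences were 1.22 ± 0.13 and 1.17 ± 0.19 (limma adjusted p of 8.1e-05 and 0.0097). As in tty, LD and DD libraries did not overlap in either cell type at these regions.

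Others of the 15 lie at Nup153, a nuclear pore gene (log2 differences of 1.04 in clock neurons, 1.09 in non-clock cells), rdgB, a phosphatidylinositol transfer protein gene of photoreceptors (0.98 and 1.18), X11Lbeta (0.87 and 0.95), Tomosyn, an inhibitor of vesicle release (0.74 and 0.83), and RhoGAP19D (0.71 and 1.10). The remainder lie at Usf, CG12237, Rip11 and Socs16D and at 3 regions beside ribosomal RNA genes, where repeated copies could not be told apart. The 15 had a median width of 290 bp against 590 bp for the other X-linked regions, and 8 of the 15 windows (53.3%) held GAGAG against 44.9% of the other windows on X. Outside X 26 of the 37 regions higher in DD in both cell types (70.3%) held it, and nothing particular to X is read from these shares. Nup153 held 10 matches, CG2186 9 and Usf 7, as descriptions of these windows.

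Among the regions that fell in DD, an intron of kirre, an immunoglobulin-type adhesion protein gene, at chrX:2773260-2773805 had 4.52, 6.00 and 8.04 CPM in LD clock neurons and 2.67, 2.93 and 3.48 CPM in DD. In non-clock cells it had 9.06, 9.59, 9.82 and 10.1 CPM in LD and 4.31, 4.34 and 5.12 CPM in DD, and the groups did not overlap in either cell type. Lack of overlap was part of the rule that named this region. Its log2 differences were -1.04 ± 0.14 and -1.04 ± 0.10 (limma adjusted p of 0.00023 and 0.00035). In per01 in DD it had 4.65, 5.54 and 7.38 CPM in clock neurons and 6.57, 7.29, 8.13 and 10.2 CPM in non-clock cells. It was thus called higher in per01 than in wild-type DD in both cell types, by 0.83 and 0.80 (limma adjusted p of 0.00052 and 0.011). An intron of the teneurin gene Ten-a fell by 1.05 in non-clock cells, as did a region near lncRNA:CR45532 by 1.01, and an intron of RhoGAP19D at chrX:20481300-20481647 fell by 0.90 and a region near CG43737 by 0.82 in clock neurons.

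Of the gene lists, ion channels had 1 region higher and 19 lower in DD in non-clock cells, and 4 and 11 in clock neurons. Of the 48 ion channel regions 33 lie on X, and these gave 18 of the 19 lower in non-clock cells and 10 of the 11 in clock neurons. In clock neurons neuronal transcription factors had 29 and 10 and cell adhesion and axon guidance 21 and 12. In non-clock cells these lists had 13 and 6, and 4 and 20, with 13 of the 20 on X. Core clock regions had 3 and 1 in clock neurons and 3 and 0 in non-clock cells, neuropeptides and their receptors 1 and 2, and 0 and 3, synapse genes 5 and 0, and 0 and 3, and insulator and architectural proteins 2 and 0, and 1 and 0. In non-clock cells repo had 2.18 to 3.98 CPM in LD and 3.77 to 6.97 CPM in DD, while the sum over the 6 glial markers was 38.7 to 40.4 CPM in LD and 33.7 to 47.0 CPM in DD, with alrm called in 0 of these libraries. The part of glia in the change of non-clock cells was not tested.

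Genotypes were compared within DD, again separately in the cell types. In clock neurons 475 distal regions (15.5%) were called, 237 higher and 238 lower in per01, against 14.6% of all regions tested, and total tags gave 377 and 104, so no direction is drawn from the split. In non-clock cells 132 (4.30%) were called, 89 higher and 43 lower, against 4.87% of all. The count of non-clock cells was 39 without DD non-clock replicate 1 or without DD non-clock replicate 2, and 65 and 73 without per01 non-clock replicates 2 and 3. All 72 regions called in both cell types had the same direction, 46 higher and 26 lower in per01, which is 15.2% of those called in clock neurons and 54.5% of those in non-clock cells. This overlap was not counted over all regions tested. Across the distal regions r between the cell types was 0.428, and it was 0.474 across start regions open in every library. Sets of flies differ between the genotypes, in genetic background and in what the labels say of sex, and these cannot be told apart from the per01 allele.

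The largest rise was in an intron of Usp2, a deubiquitinase gene, at chrX:22461298-22461907. It had 3.13, 3.48 and 4.36 CPM in wild-type clock neurons and 9.39, 10.4 and 11.7 CPM in per01 clock neurons, and 2.75, 2.88 and 2.93 CPM against 8.54, 8.81, 8.82 and 10.9 CPM in non-clock cells. Genotypes did not overlap, which the rule for the largest rises asked for. The differences were 1.46 ± 0.11 and 1.69 ± 0.12 (limma adjusted p of 9.1e-08 and 1.4e-05). Introns of the phosphatase gene EDTP (0.93 and 1.16) and of l(2)41Ab (0.78 and 0.90) were higher in per01 in both cell types, and an intron of Usp15-31 by 0.89 in clock neurons, with 0.19 and no call in non-clock cells.

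In the other direction, an intron of Tlk, the Tousled-like kinase gene, at chrX:3743787-3744174 had 26.4, 31.5 and 34.6 CPM in wild-type clock neurons and 14.8, 16.4 and 23.9 CPM in per01. In non-clock cells it had 30.0, 31.1 and 35.7 CPM in wild type and 18.8, 20.7, 21.1 and 23.7 CPM in per01. All per01 libraries lay below all wild-type libraries of DD, which the rule for the largest falls asked for in clock neurons. The differences were -0.90 ± 0.08 and -0.60 ± 0.08 (limma adjusted p of 1.9e-06 and 0.0028). Regions at CG42260 (-0.88 and -0.79), beside the immune recognition gene PGRP-LA (-0.86 and -0.65) and in the tyrosine phosphatase gene Ptpmeg2 (-0.56 and -0.84) were lower in per01 in both cell types. An intron of the potassium channel gene Elk was lower by 0.82 on the log2 scale in non-clock cells, and its difference in clock neurons was -0.25. Of the gene lists, core clock had 2 higher and 0 lower in clock neurons, ion channels 3 and 3, neuronal transcription factors 8 and 11, cell adhesion and axon guidance 12 and 5, synapse genes 0 and 5, and the other lists 0. In non-clock cells the counts were 1 and 0 for core clock, 2 and 1 for ion channels, 3 and 2 for neuronal transcription factors, 3 and 1 for cell adhesion and axon guidance, 0 and 2 for synapse genes, and 0 for the other lists.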

How the data were processed

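ATAC-seq of 33 libraries in 9 groups was analysed. Per the labels and the study's methods, the authors trimmed with cutadapt 4.1, aligned to dm6 with Bowtie2 2.4.5, filtered with SAMtools 1.15.1 and Picard 2.27.4, and called peaks per library with MACS2 2.2.7.1. The deposited lists give each peak's fold enrichment ratio and its −log10 p, both made by the authors with MACS2. The tags at a summit were solved from these, and were whole within 0.02 for 100% of 717706 peaks, so that values are counts at summits and not read counts over regions. Library totals, 4.18 to 36.2 M, came from the background over 1.2e+08 bp. No column was left without a sample (0), and no pair of libraries shared over 0.0364% of identical peaks.

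Regions were the merged peaks, and distances used the annotated transcript starts of the dm6 gene models, those of transposable elements left out. Median-of-ratios factors scaled the libraries before log2(tags + 1) was fitted with limma 3.58.1 (trend) in R 4.3.3, and p was adjusted by Benjamini-Hochberg over all regions that at least as many libraries called as the smaller group holds. In other regions a missing call received the lowest tags of its library, but the regions described needed none. Recovery and fit were tested on simulated data. The labels, the study's methods and the times disagree in part on days of darkness and number of brains, and the label times were used. The regions, gene lists and named examples were chosen with earlier results of these data known. Examples were named by rule, namely the 10 highest levels, up to 3 largest rises and falls without overlap per comparison, regions at core clock genes, the 3 lowest and 3 highest spreads, 5 per direction for cell type in all 3 settings, and those at the limits. Lack of overlap in such a rise or fall is thus part of the choice and not a result. The genes described among those with 9 or more regions, the 15 X-linked risers and the other regions lower at CT36 were added after their values were seen. All else was done in Python 3.11.15 (matplotlib 3.10.9, scipy 1.17.1, pandas 2.3.3, numpy 2.4.6).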

Additional observations from a re-analysis of the deposited data

Results flagged for a closer look

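Single libraries stood apart from the others of their group in 13 of the 138 groups of 4 values tested, where chance gives about 1 in 20. The gap to the next value, divided by the range of the group, was above Dixon's 95% limit in each. In per01 CT24 replicate 3 the median level of the distal regions was 8.74 CPM, their share of all summit tags was 23.2%, and the Tlk intron had 23.9 CPM against 15.7 to 16.2 CPM in the other libraries. The median level was 8.06 CPM in per01 CT36 replicate 1, below the others of its group.

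The CG6659 intron had 2.52 CPM in ZT0 replicate 3, below the others, and 13.4 CPM in per01 CT36 replicate 4, above the others. The sgg intron had 8.75 CPM in ZT12 replicate 4, the region near CG1394 had 6.83 CPM in LD non-clock replicate 1, and the Pdp1 intron had 19.3 CPM in per01 CT24 replicate 4. In per01 non-clock cells the Clk intron had 3.10 CPM in replicate 2, the vri intron 5.80 CPM in replicate 1, the Usp2 intron 10.9 CPM in replicate 4 and the CG42342 intron 2.03 CPM in replicate 4.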

How the results depend on the processing

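Of the shares of distal regions called and the number of regions, 78 values under the alternatives set out at the start stayed within 1.5 times the first value and 13 moved further. Between ZT12 and ZT0 the share called rose from 0% to 0.0978% with total tags, with a pseudocount of 8 tags and with voom, to 0.978% with 1 fit over all 33 libraries and to 0.228% with the replicate number as a block. Between CT36 and CT24 it was 2.35% with total tags, 0.358% with no filter, 0.0978% with summed in place of highest summits, 0.489% with 1 fit and 0% with the replicate block. Summed summits gave 9.74% for light regime and 2.57% for genotype in non-clock cells and 0.0326% for time by genotype, and leaving out X, added after seeing the data, gave 4.31% for light regime in non-clock cells. Replicate numbers were not taken as pairs, since in every comparison some same-numbered libraries had deviations from their group means that correlated at 0.1 or less. This does not exclude pairing. The median correlation of same-numbered libraries was 0.219 for ZT12 versus ZT0 and 0.124 for per01 time, against -0.0275 and -0.0319 for other pairs. For wild-type DD over time it was not higher, at -0.0129 against 0.00686. Whether replicates were prepared together was not tested. With the block the shares were 66.8%, 55.8% and 58.4% for cell type, 22.0% and 10.9% for light regime, 11.4% and 3.26% for genotype, and 0% for per01 time and time by genotype.

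Without 1 replicate the shares ran from 57.2% to 65.1%, 44.1% to 56.5% and 49.2% to 58.2% for cell type in LD, DD and per01, 0% to 0.0652% for time in LD, 0% to 7.49% in DD and 0% in per01, and 0% for time by genotype. They ran from 20.3% to 28.6% and 5.18% to 27.4% for light regime in clock neurons and non-clock cells, and from 10.9% to 18.6% and 1.27% to 6.03% for genotype. The cause of these moves was not tested. Windows of 50 bp on either side of the summit lowered the motif shares, GAGAG to 22.1%. Values are tags at summits, depth limits the small differences that can be called in the shallowest clock neuron libraries, and a change in width or away from the summit is not seen.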
